A study of Mus musculus with 6 samples.

Results

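The genes described here are p53 (*Trp53* in the mouse) and 9 genes of its pathway, *Mdm2*, *Ccng1*, *Bax*, *Bbc3*, *Phlda3*, *Sesn1*, *Sesn2*, *Zmat3* and *Trp53inp1*. They were taken by symbol from a list of p53 pathway genes, and all 10 were found among the 11386 genes measured in each of the 3 passages. The cells were mouse dental mesenchymal cells (mDMCs), the connective tissue cells of the tooth germ, from molars of embryos at embryonic day 14.5. The mesenchyme was freed from the dental epithelium by enzyme digestion and used fresh (P0), or the cells were grown on plastic in standard medium with serum to the first (P1) or the second (P2) passage. No other treatment or genotype separated the groups, and 2 libraries of each passage were sequenced, 6 in all. Nothing in the labels says whether the 2 libraries of a passage came from separate animals or cultures, so the spread between them may be technical.

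p53 is a transcription factor that is made and destroyed continuously in unstressed cells. Mdm2, the ubiquitin ligase encoded by one of its own target genes, marks it for degradation, and DNA damage, oncogene activity and other stresses release it from this control. p53 then binds its response elements and raises genes that stop the cell cycle, repair DNA, change metabolism or start apoptosis. Since this control acts mainly on the protein, the level of *Trp53* mRNA says little of p53 activity, which the present libraries did not measure.

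Expression is given in scaled units, the authors' normalized value divided by the total of its passage and multiplied by 1000000. One scaled unit is 18.72 on the deposited scale in P0. The deposited values are not read counts, and how deeply each library was sequenced cannot be told from them. The values of the 2 libraries were worked back from the deposited means and errors, but not which of them was replicate 1, so they are given as the lower and the higher library. Log2 fold changes are differences of log2(scaled value + 1), with the standard error (SE) and the Benjamini-Hochberg adjusted p of limma over all 11386 genes. A gene was called when the adjusted p was under 0.05 and the difference was at least 2-fold.

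The makeup of the samples changed along with the passages. All 13 mesenchyme markers examined had values in every passage, and their summed level (a sum of passage means, since values could not be assigned to libraries) was 19954 scaled units in P0, 24123 in P1 and 23308 in P2. A few abundant genes carried this sum, and some stood at the highest deposited value, 133818. *Col1a2* did so in all 6 libraries, *Col3a1* in both P0 libraries and *Vim* in both P1 libraries, so the sums cannot measure a rise. Of the 13 markers, 4 were called lower and 2 higher in each culture, with a median log2 fold change of -0.27 in P1 and -0.48 in P2. Over all genes, 12.0% were called lower and 12.2% higher in P1, and 14.4% and 14.0% in P2. The 2 of 13 called higher are near these shares. The 8 measured of 12 red cell markers summed to 12118 scaled units in P0, 2.32 in P1 and 4.75 in P2, with 2 and 3 of them at 0 in the cultured cells. The 11 measured of 13 endothelial markers summed to 512, 47.8 and 59.0 scaled units, with *Tie1* among the 3 at 0 in P1 and the 4 at 0 in P2. Most of the sum in culture was *Flt1*, the one of them not called lower, and without it the other 10 summed to 479, 13.8 and 8.04 scaled units. The 4 measured of 10 dental epithelium markers summed to 69.6, 1.74 and 1.55 scaled units, with none at 0 in P1 and 1 in P2. The 4 measured of 11 macrophage markers summed to 55.5, 15.5 and 50.1 scaled units, and none was at 0. The P2 sum rested on *Lyz2*, the one called higher there, and without it the other 3 summed to 47.8, 9.24 and 13.2 scaled units. These shifts ran alongside every difference between P0 and the cultured cells given here, and their part in it was not tested. In bulk RNA, fewer cells of a type and less RNA of a gene per cell cannot be told apart.

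The promoters of the pathway genes are shown so that the sequence near their starts can be compared. RefSeq promoter windows (GRCm38.p6, 250 bases before to 50 bases after a start) were at hand for 8 of the 10 genes, in 11 windows, but not for *Zmat3* and *Trp53inp1*. Each window was searched for the 10-letter p53 consensus motif, which reads the same on both strands and of which a complete p53 response element holds a pair. At least 1 exact match stood in a window of 5 of the 8 genes, against 9.55% of all 27025 genes with a window and 8.36% of all 32851 windows. The 5 windows follow, read along the gene's strand, with the match in capitals.
*Ccng1*, chr11:40755237-40755536, minus strand: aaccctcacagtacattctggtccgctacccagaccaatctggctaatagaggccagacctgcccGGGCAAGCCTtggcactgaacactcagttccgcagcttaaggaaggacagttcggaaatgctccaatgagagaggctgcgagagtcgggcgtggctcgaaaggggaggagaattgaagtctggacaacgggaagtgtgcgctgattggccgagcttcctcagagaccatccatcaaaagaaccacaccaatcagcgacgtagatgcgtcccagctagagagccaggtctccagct
*Mdm2*, chr10:117710709-117711008, minus strand: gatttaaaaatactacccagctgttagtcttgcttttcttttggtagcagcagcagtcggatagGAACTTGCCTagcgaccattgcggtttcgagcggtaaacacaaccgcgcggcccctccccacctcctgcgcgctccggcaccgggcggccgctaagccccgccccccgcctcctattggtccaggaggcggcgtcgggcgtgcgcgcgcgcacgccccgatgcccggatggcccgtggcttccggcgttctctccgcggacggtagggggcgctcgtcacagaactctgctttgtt
*Bax*, chr7:45466849-45467148, minus strand: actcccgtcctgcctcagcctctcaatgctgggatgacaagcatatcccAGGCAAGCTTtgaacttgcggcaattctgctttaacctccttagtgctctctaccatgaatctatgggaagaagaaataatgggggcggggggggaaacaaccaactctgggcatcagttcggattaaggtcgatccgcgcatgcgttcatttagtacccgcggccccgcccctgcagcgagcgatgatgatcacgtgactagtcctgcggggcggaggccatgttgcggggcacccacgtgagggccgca
*Trp53*, chr11:69580109-69580408, plus strand: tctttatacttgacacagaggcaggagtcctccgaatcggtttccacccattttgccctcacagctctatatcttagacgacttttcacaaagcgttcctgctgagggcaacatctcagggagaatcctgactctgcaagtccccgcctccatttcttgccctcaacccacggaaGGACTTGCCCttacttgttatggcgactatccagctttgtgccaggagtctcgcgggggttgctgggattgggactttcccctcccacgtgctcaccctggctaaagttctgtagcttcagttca
*Sesn1*, chr10:41887189-41887488, plus strand, at the downstream of its starts: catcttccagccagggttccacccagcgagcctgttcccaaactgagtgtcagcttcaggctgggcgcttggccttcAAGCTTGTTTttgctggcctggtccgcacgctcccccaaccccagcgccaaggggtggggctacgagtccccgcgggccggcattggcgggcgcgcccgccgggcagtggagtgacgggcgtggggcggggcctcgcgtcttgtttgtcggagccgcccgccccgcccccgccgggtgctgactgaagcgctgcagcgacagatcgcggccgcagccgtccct

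The match began 185 bases before the start in *Ccng1*, 186 in *Mdm2*, 201 in *Bax*, 75 in *Trp53* and 173 in *Sesn1*. In *Ccng1* it was the second part of a pair without a spacer, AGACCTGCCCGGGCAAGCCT, which began 195 bases before the start and departed from the full 20-letter motif at 1 letter. Such a run with at most 1 mismatch occurred in 0.0883% of all windows, and with at most 2 in 0.798%, and no other of the 8 genes with a window had one. The windows of *Bbc3*, *Phlda3* and *Sesn2* held no exact match of the 10-letter motif, which says only that these letters are not in these windows. A match did not follow the change in culture given below. *Trp53* and *Sesn1*, not called, had a match, while *Bbc3*, *Phlda3* and *Sesn2*, called higher, had none. In *Sesn1* the match stood only in the window of the downstream start, and the window of its upstream start held none. In *Mdm2* the element known to bind p53 lies in the first intron, outside the window shown. A match in a window is a description of the sequence and not a binding site.

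*Cdkn1a*, which encodes the cell cycle inhibitor p21 and is the best known p53 target, is given for comparison from the window of its upstream start.
*Cdkn1a*, chr17:29090896-29090947, plus strand: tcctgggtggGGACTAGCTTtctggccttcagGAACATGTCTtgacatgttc
Both stretches in capitals match the 10-letter motif, at 73 and 51 bases before that start. The one nearer the start opens the 20-letter run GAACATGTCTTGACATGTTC, which departs from the full motif at 1 letter.

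In P1 and P2 cells, 8 of the 10 genes were called higher than in P0 cells and none was called lower. They were the same 8 genes in both passages: *Mdm2*, *Ccng1*, *Trp53inp1*, *Bax*, *Bbc3*, *Phlda3*, *Sesn2* and *Zmat3*. Of all 11386 tested, the share called was 12.2% in the higher and 12.0% in the lower direction in P1, and 14.0% and 14.4% in P2. The median log2 fold change of the 10 genes was 2.09 in P1 and 2.11 in P2, against 0.02 and 0.01 over all genes. In the same 8 genes both cultured libraries lay above both P0 libraries, which was so for 42.0% of all genes in P1 and 43.0% in P2, and an adjusted p under 0.05 with a higher value was reached by 29.6% and 31.6%. With *Sesn1*, 9 of the 10 had an unadjusted p under 0.05, as had 63.6% of all genes in P1 and 67.7% in P2. *Trp53* itself did not pass the test in either passage, and *Sesn1* was lower in both cultures by less than the 2-fold limit. Each gene of the tables exceeds 100, as deposited, in 2 or more of the 6 libraries. All 10 pathway genes were above this value in all 6 libraries, the lowest being 105 for *Bbc3* in P0, so none is in the tables only through the cultured cells.

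**Figure D1:**
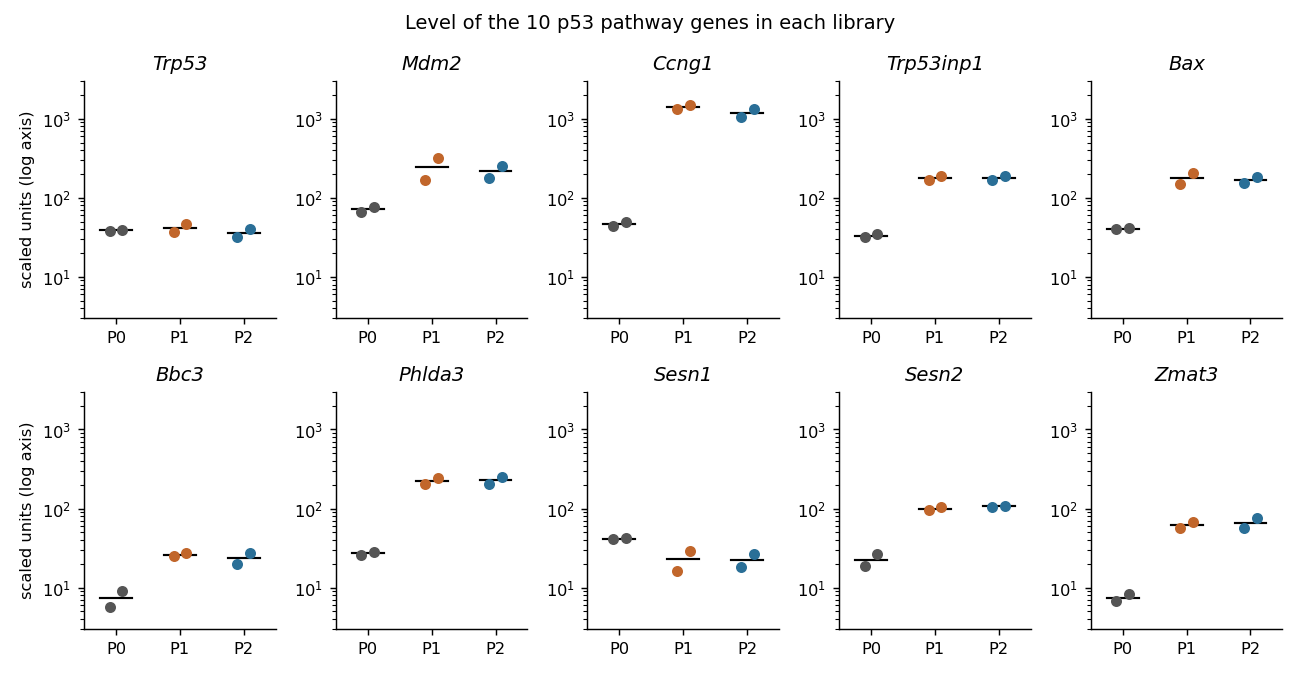
Level of each of the 10 genes in scaled units (log axis) in the 2 libraries of P0, P1 and P2 (points, the lower library on the left), with the passage mean as a line. In 8 panels both P1 and both P2 libraries lie above both P0 libraries, those of *Trp53* overlap, and those of *Sesn1* lie below P0.

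*Trp53* (chr11:69580359-69591873 in mm10, plus strand, 11 exons) encodes p53. Its P0 libraries held 38.5 and 39.6 scaled units, its P1 libraries 36.4 and 47.2, and its P2 libraries 32.2 and 40.4. The P0 libraries lay between the lower and the higher library of each culture, so the 3 passages overlapped. The log2 fold change was 0.09 in P1 (SE 0.17, adjusted p 0.680 by limma) and -0.11 in P2 (SE 0.17, adjusted p 0.580). The 95% interval of the fold ran from 0.801 to 1.41 in P1 and from 0.699 to 1.23 in P2, which leaves room for small changes in either direction.

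The 3 genes that act back on p53 rose in both cultures. *Mdm2* (chr10:117688888-117710758, minus strand, 12 exons) had 65.8 and 77.2 scaled units in P0, 168.8 and 323.3 in P1, and 180.5 and 251.9 in P2. Every cultured library was above both P0 libraries, and the P1 libraries lay the farthest apart of the 3 passages. The log2 fold change was 1.70 in P1 (SE 0.32, adjusted p 0.00521) and 1.57 in P2 (SE 0.32, adjusted p 0.00612), or 3.44-fold and 3.02-fold between the passage means. *Mdm2* was the called gene with the largest SE of the 8.

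*Ccng1* (chr11:40748552-40755311, minus strand, 6 exons) encodes cyclin G1, an atypical cyclin that brings a phosphatase to Mdm2. Its levels were 43.5 and 49.9 scaled units in P0, 1330 and 1507 in P1, and 1053 and 1331 in P2. No other gene of the 10 changed as much, with a log2 fold change of 4.90 in P1 (SE 0.14, adjusted p 1.58e-05) and 4.64 in P2 (SE 0.14, adjusted p 1.36e-05). The means differed 30.4-fold and 25.5-fold, and the smallest ratio of a cultured to a P0 library was 26.7 in P1 and 21.1 in P2. The normalized values of the most abundant genes came in steps shared by 10 genes per library, with gaps between the steps, and *Ccng1* stood in them in the cultured cells. Its lower P1 library and its higher P2 library had the same deposited value, 24909, in a step from 24817 to 24973, with the neighbouring values at 22056 and 28143. The size of its rise is therefore known only to about the width of these gaps.

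*Trp53inp1* (chr4:11156431-11174379, plus strand, 4 exons) encodes a stress-induced nuclear protein that acts with p53 and also takes part in autophagy. It had 31.5 and 34.7 scaled units in P0, 165.9 and 190.2 in P1, and 165.9 and 191.4 in P2, so the libraries of the 2 cultures covered nearly the same range. Its log2 fold change was 2.39 in P1 (SE 0.12, adjusted p 6.38e-05) and 2.39 in P2 (SE 0.12, adjusted p 4.37e-05), the smallest SE of the 10 genes.

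The genes of mitochondrial apoptosis rose as well. *Bax* (chr7:45461695-45466898, minus strand, 6 exons) encodes a protein that opens pores in the outer mitochondrial membrane. Its P0 libraries, 40.1 and 41.6 scaled units, were close together, whereas its P1 libraries held 148.6 and 204.6 and its P2 libraries 153.2 and 185.6. All cultured libraries were above P0, with a log2 fold change of 2.07 in P1 (SE 0.17, adjusted p 0.000287) and 2.02 in P2 (SE 0.17, adjusted p 0.000223). *Bax* shared 192 exon bases with *Gm45808*, an overlapping gene on the same strand that is not among the genes measured, so some of its reads could have come from either.

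*Bbc3* (chr7:16309616-16318205, plus strand, 4 exons) encodes Puma, which sets Bax free by binding the proteins that hold it. It had 5.61 and 8.97 scaled units in P0, 24.8 and 27.6 in P1, and 19.9 and 27.1 in P2. The groups did not overlap, and the log2 fold change was 1.74 in P1 (SE 0.24, adjusted p 0.00161) and 1.58 in P2 (SE 0.24, adjusted p 0.00188). At such levels the added 1 understates the change, and the means differed 3.59-fold and 3.22-fold.

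Of the genes that act on growth signalling, *Phlda3* (chr1:135766119-135769136, plus strand, 2 exons) encodes a small lipid-binding protein that keeps the kinase Akt from the membrane. It had 25.7 and 28.4 scaled units in P0, 206.6 and 242.3 in P1, and 202.9 and 252.3 in P2. Every cultured library was at least 7.14 times a P0 library. The log2 fold change was 3.004 in P1 (SE 0.14, adjusted p 5.10e-05) and 3.02 in P2 (SE 0.14, adjusted p 3.66e-05).

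The sestrins, stress proteins that restrain the growth kinase complex mTORC1, differed in direction, *Sesn2* being called higher and *Sesn1* lying below P0 without a call. *Sesn2* (chr4:132492032-132510501, minus strand, 10 exons) had 18.6 and 26.7 scaled units in P0, 95.8 and 103.3 in P1, and 105.2 and 107.2 in P2. Its log2 fold change was 2.11 in P1 (SE 0.17, adjusted p 0.000250) and 2.20 in P2 (SE 0.17, adjusted p 0.000152). *Sesn1* (chr10:41810574-41908424, plus strand, 10 exons) had 40.7 and 42.7 scaled units in P0, 16.2 and 29.1 in P1, and 18.0 and 26.4 in P2. All 4 cultured libraries were below both P0 libraries, at means of 54.4% and 53.2% of P0, and 40.9% of all genes in P1 and 42.2% in P2 showed the same separation. The log2 fold change of *Sesn1* was -0.90 in P1 (SE 0.29, adjusted p 0.0384) and -0.90 in P2 (SE 0.29, adjusted p 0.0356), past the p threshold but under 2-fold, so that it was not called. An adjusted p under 0.05 with a lower value in culture was reached by 29.1% of all genes in P1 and 32.1% in P2. *Sesn3*, the remaining sestrin, had a log2 fold change of -0.45 in P1 (SE 0.30, adjusted p 0.231) and -0.40 in P2 (SE 0.30, adjusted p 0.282).

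*Zmat3* (chr3:32334798-32365678, minus strand, 6 exons) encodes a zinc finger protein that binds RNA and affects the splicing and stability of its targets. It had 6.73 and 8.23 scaled units in P0, 56.2 and 67.2 in P1, and 56.2 and 75.1 in P2. The lower library was thus at the same level in both cultures, several times above P0. The log2 fold change was 2.89 in P1 (SE 0.18, adjusted p 0.000117) and 2.97 in P2 (SE 0.18, adjusted p 7.75e-05), and the means differed 8.25-fold and 8.78-fold.

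Ordered by log2 fold change, the genes stood in the same order in P1 and P2. *Ccng1* came at the top, beyond 2 combined SE of the next gene. *Phlda3* and *Zmat3* followed and differed from each other by less than their combined SE, and *Zmat3* was beyond 2 combined SE of *Trp53inp1*. Among *Trp53inp1*, *Sesn2*, *Bax*, *Bbc3* and *Mdm2*, no neighbours in the order differed by 2 combined SE. *Trp53* stood below this group and *Sesn1* below *Trp53*, both beyond 2 combined SE of the gene above.

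**Figure D2:**
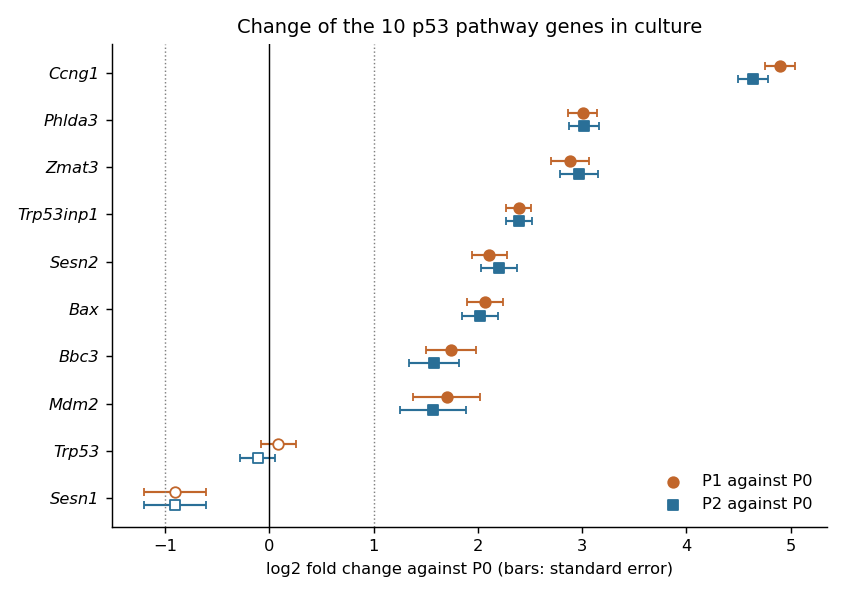
Log2 fold change of each gene in P1 (circles) and P2 (squares) against P0, with the standard error as bars and the 2-fold limits dotted, filled where the gene was called. *Ccng1* is at 4.90 and 4.64, the other 7 called genes lie between 1.57 and 3.02, and *Trp53* and *Sesn1* are open.

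Levels of different genes can be compared at most per length. The deposited values are not counts, and whether they are proportional to reads was not tested, so the order is a rough one. Per kilobase of the transcript named in the tables (lengths from GENCODE M21), *Bax* was the highest of the 10 in P0 at 47.1 scaled units, followed by *Mdm2* at 23.1 and *Trp53* at 22.0, and *Zmat3* was the lowest at 0.959. In P1 the highest level per kilobase was that of *Ccng1* at 404 scaled units, before *Bax* at 204, *Phlda3* at 156 and *Mdm2* at 79.4. *Trp53*, at 23.6 scaled units per kilobase in P1, stood below *Trp53inp1* at 32.9 and *Sesn2* at 28.6, both of which were under it in P0. *Sesn1* was the lowest in P1 at 5.95 and in P2 at 5.82 scaled units per kilobase.

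Between P1 and P2 cells none of the 10 genes was called, and none had an unadjusted p under 0.05 by limma, a value that 14.3% of all genes had. The share of all genes called was 0.0878% in the higher and 0.211% in the lower direction. The log2 fold changes of P2 against P1 ran from -0.26 for *Ccng1* (SE 0.14, adjusted p 0.502) to 0.09 for *Sesn2* (SE 0.17, adjusted p 0.863), with a median of -0.02. The 95% intervals of the fold were 0.818 to 1.23 for *Trp53inp1*, the narrowest, and 0.533 to 1.56 for *Mdm2*, so a moderate change of *Mdm2* could not be seen with 2 libraries. *Sesn2* was the only gene of the 10 whose P1 and P2 libraries did not overlap, the means being 1.07-fold higher in P2, and 19.4% of all genes showed no overlap in this direction.

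Other genes of the p53 network were counted from lists by role. Among 70 measured of 78 further p53 targets, 32 rose and 4 fell past both limits in P1, 34 rose and 8 fell in P2, and 30 rose in both. The shares over all genes were 12.2% in the higher and 12.0% in the lower direction in P1, and 14.0% and 14.4% in P2, and the counts by role are to be read against them. The median log2 fold change of these targets was 0.85 in P1 and 0.93 in P2, against 0.02 and 0.01 over all genes. Of those called higher, 21 in P1 and 24 in P2 had values above 100 in both P0 libraries. The remaining 11 and 10 did not. A gene under 100 in both P0 libraries is in the tables only because it was high in culture, so it had to differ and its rise is no support. Of the genes named below this holds for *Cdkn1a*, *Perp*, *Pmaip1*, *Mgmt*, *9630033F20Rik*, *Dram1* and *Steap3*. It also holds for *Fas* and *Pidd1*, called higher in P1 but not described below. The counts by role and the medians above include these genes. Of the 70 targets, 57 were above 100 in all 6 libraries, and no median was taken over these alone.

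**Figure D3:**
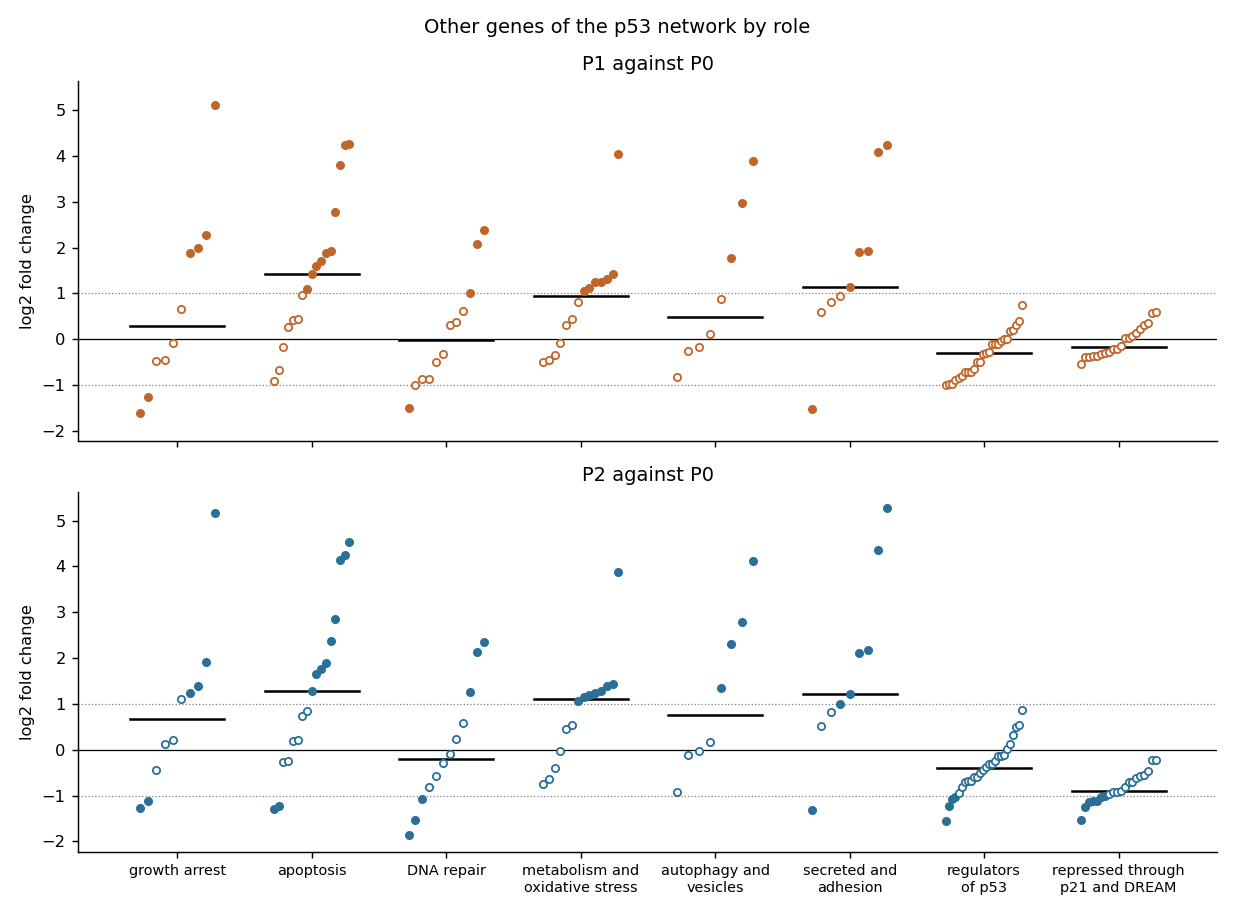
Log2 fold changes against P0 of other p53 network genes by role, in P1 (top) and P2 (bottom), each point a gene in rank order, filled where called, with the median as a line and the 2-fold limits dotted. Called genes of the 6 target groups are mostly above 0, whereas the called regulators and cell cycle genes are all below 0, in the P2 panel.

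Genes of growth arrest were mixed, with 4 of 10 called higher and 2 lower in each culture. Against 12.0% and 14.4% of all genes, 2 of 10 lower is no clear departure. *Cdkn1a* had 1.28 scaled units in both P0 libraries, 66.1 and 91.7 in P1, and 68.4 and 96.3 in P2. Its log2 fold change was 5.11 in P1 (SE 0.22, adjusted p 3.84e-05) and 5.17 in P2 (SE 0.22, adjusted p 2.66e-05). With a deposited value of 24 in both P0 libraries, *Cdkn1a* passed the minimum of 100 only through the cultured cells and had to differ. *Ptprv*, a receptor phosphatase gene that p53 raises in mouse cells, had a log2 fold change of 2.28 in P1 and 1.91 in P2. *Gtse1*, whose product keeps p53 out of the nucleus in dividing cells, had 1.996 and 1.23. The 2 called lower, named after their values were seen, were *Btg2*, an antiproliferative gene that is also an early response gene, at -1.61 and -1.27, and *Ccng2*, a cyclin gene that FoxO factors also raise, at -1.26 and -1.11.

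Of 17 measured apoptosis genes, 10 were called higher in P1 and 9 in P2, and 0 and 2 were called lower. The higher calls include genes that had to differ because their P0 values were under the minimum of 100, *Perp* and *Pmaip1* among them. *Perp*, a membrane protein gene, had a log2 fold change of 4.25 in P1 and 4.54 in P2, from deposited P0 values of 38 and 84. *Eda2r*, encoding a death receptor for an ectodysplasin isoform, had 7.32 and 7.48 scaled units in P0, 131 and 187.5 in P1, and 130 and 194 in P2, a log2 fold change of 4.23 (SE 0.24, adjusted p 8.40e-05) and 4.25 (SE 0.24, adjusted p 5.83e-05). *Pmaip1*, which encodes Noxa and like *Bbc3* acts on the Bax pathway, had log2 fold changes of 3.80 and 4.15, from P0 values under the minimum of 100. The 2 called lower in P2, named after their values were seen, were *Bcl2l11*, the gene of Bim, at -1.23 and the imprinted gene *Peg3* at -1.30.

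DNA repair genes were called in both directions, 3 of 12 higher and 1 lower in P1, and 3 higher and 3 lower in P2. With 12 genes on the list these counts do not stand clear of the shares over all genes (12.2% and 12.0% in P1, 14.0% and 14.4% in P2). *Polk*, a polymerase that copies past damaged bases, had a log2 fold change of 2.38 and 2.36, and *Mgmt*, which removes alkyl groups from guanine, 2.09 and 2.14, from deposited P0 values of 70 and 73.

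In the metabolism group, 7 of 14 genes were called higher in P1 and 8 in P2, and none was lower. *Ak1*, the cytosolic adenylate kinase, rose from 19.98 and 20.3 scaled units in P0 to 293 and 411 in P1 and 272 and 354 in P2, a log2 fold change of 4.04 (SE 0.19, adjusted p 5.36e-05) and 3.88 (SE 0.19, adjusted p 4.37e-05). The gene listed as *9630033F20Rik*, now named *Tigar*, which lowers glycolytic flux, had log2 fold changes of 1.43 and 1.44 from deposited P0 values of 34 and 62, and the carnitine palmitoyltransferase gene *Cpt1c* had 1.25 and 1.38. Among 8 autophagy and vesicle genes 3 were called higher in P1 and 4 in P2, with none lower. *Dram1*, a lysosomal membrane protein gene of p53-induced autophagy, had 3.89 and 4.13, and *Steap3*, which acts in iron uptake and exosome release, 2.96 and 2.79, both from P0 values under the minimum of 100. *Trp53inp2*, a relative of *Trp53inp1*, had 1.77 and 2.31, with its P0 libraries above that value.

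Of the 9 measured secreted and adhesion genes, 5 were called higher in P1 and 6 in P2, with 1 lower in each. *Thbs1*, the matrix protein gene of thrombospondin 1, had a log2 fold change of 4.08 in P1 and 4.36 in P2, and *Epha2*, an ephrin receptor gene, 1.93 and 2.17. In culture *Thbs1* stood among the stepped values of the most abundant genes, at a deposited 64052 in both P2 libraries. The size of its rise is therefore known only coarsely. *Igfbp3*, an IGF carrier gene named after its values were seen, was the one called lower, at -1.52 and -1.31.

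Genes that act on p53 itself were counted in the same way. Of 26 measured of 30 regulators, none was called in P1, where 14 had an adjusted p under 0.05 by limma without reaching 2-fold (3 higher and 11 lower), while in P2 the calls were 4, all lower. Over all genes, 29.6% were higher and 29.1% lower at an adjusted p under 0.05 in P1, and 14.4% were called lower in P2, so the 4 calls are near the share over all genes. The median log2 fold change of the regulators was -0.30 in P1 and -0.41 in P2. The 4 were *Chek1*, a checkpoint kinase gene (-0.98 in P1 and -1.56 in P2), *Trp53bp1*, a DNA break adaptor (-0.98 and -1.22), the deacetylase *Sirt1* (-0.997 and -1.07) and *Ppp1r13b*, which encodes a p53 cofactor in apoptosis (-0.89 and -1.03). *Mdm4*, the partner of Mdm2 in holding p53 down, had a log2 fold change of -0.71 in P1 (SE 0.16, adjusted p 0.0104) and -0.51 in P2 (SE 0.16, adjusted p 0.0301), and *Ppm1d*, a phosphatase that ends the p53 response, -0.70 and -0.94. Both are named after their values were seen. *Trp63* and *Trp73*, the relatives of p53, are not analysed here.

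A list of 20 cell division genes that p53 represses through p21 and the DREAM repressor complex was counted as well. In P1 none of the 20 was called against P0 (3 had an adjusted p under 0.05 with a higher and 4 with a lower value, smaller shares than the 29.6% and 29.1% of all genes), with a median log2 fold change of -0.17. In P2, 7 of 20 were called lower than in P0, against 14.4% of all genes, and the median was -0.90. *Bub1b*, which encodes a spindle checkpoint kinase, had a log2 fold change of -1.53 in P2, *Birc5*, which encodes survivin, -1.24, and the phosphatase gene *Cdc25c* -1.14. Set against P1, none was called, but 12 of the 20 had an adjusted p under 0.05 with a lower value in P2 (0.905% of all genes), and all 20 log2 fold changes were negative, from -0.99 to -0.62 with a median of -0.77. The 10 pathway genes, in the same comparison, stayed between -0.26 and 0.09. These comparisons share their P1 and P2 libraries, and the difference between the groups of genes was not tested. The 12 were counted in the main fit, and the calls over all genes in P2 against P1 depended on the fit.

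**Figure D4:**
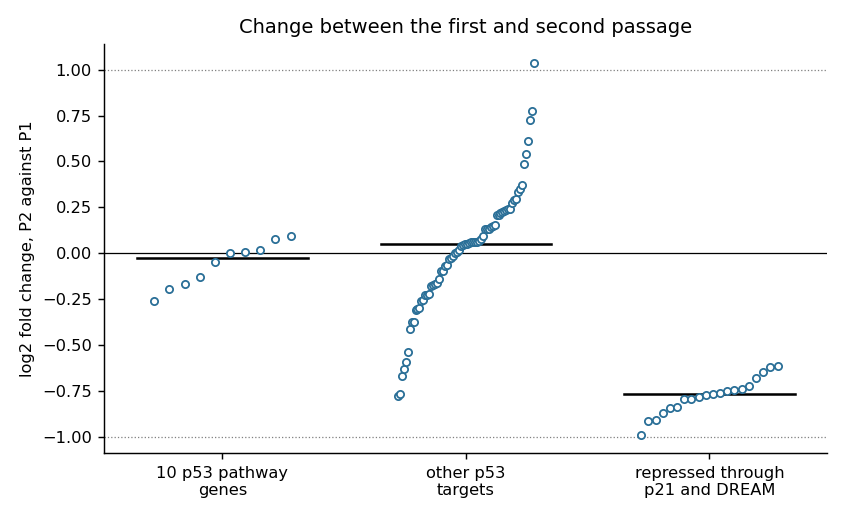
Log2 fold changes of P2 against P1 for the 10 pathway genes, 70 other p53 targets and 20 genes of the p21 and DREAM list. Each point is a gene in rank order, with the median as a line and the 2-fold limits dotted. The pathway genes lie around 0 and the other targets spread on both sides. All 20 genes of the p21 and DREAM list lie between -0.99 and -0.62, and no gene is called in any group.

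Genes with a pattern like those of *Trp53* and *Mdm2* were sought by the Euclidean distance between their log2 values in the 3 passages, each set relative to its own mean, over 9648 genes with at least 10 scaled units on average. The nearest to *Trp53* were *Amd1*, *Zfp111*, *Nedd1*, *Cox7c* and *Gart*, at distances from 0.0066 to 0.0166, but 2082 genes lay within 0.25 of it, so its flat pattern was common. The nearest to *Mdm2* were *Dock5*, *Gemin4*, *Actn1* and *Bbc3*, at 0.0186 to 0.0320, and 140 genes lay within 0.25. *Bbc3*, itself one of the 10, was the only other pathway gene among them. With 3 passage values a likeness of this kind describes the level only.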

How the data were processed

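RNA of P0, P1 and P2 mDMCs was sequenced in 6 libraries. Reads were mapped by the authors to mm10 (Ensembl 73) with bowtie 1.0.1, quantified with RSEM (1.1.21 in the submitters' processing notes, while the paper names a later version), normalized for GC content with EDASeq 1.11.0 and compared with DESeq2 1.12.0. The deposited values are a normalized score, given by the authors as a mean and an error per gene and passage. Sorted library values were identical between passages at 80.1% to 87.3% of 22772 positions, so these are not counts, and no depth or counting error can be given. Mean plus and minus error times the square root of 2 gave whole numbers for all 11386 genes (tolerance 1e-06), and these were used as the library values. One entry per table is not analysed here. The symbols of 18 genes had turned into dates, and these genes were kept under their Ensembl identifiers without a symbol.

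log2(scaled value + 1) of all 6 libraries was fitted with limma 3.58.1 in R 4.3.3 (lmFit, eBayes with a trend), without a replicate term. All genes reached the minimum of 1 scaled unit in 2 libraries. The fit was tested on simulated data. The 10 genes, the other lists and the tests were chosen with earlier results of these data known. Beside the 10 genes and *Cdkn1a*, up to 3 called genes per list with the largest change were named, of which some are not reported here, as is 1 of the 5 genes nearest to *Mdm2*. RefSeq promoter windows were matched by symbol. Alternatives covered the pseudocount, filter, scaling, libraries in the fit, trend and thresholds; a weight for each passage was added after seeing the data.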

Additional observations from a re-analysis of the deposited data

How the results depend on the processing

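The number of pathway genes called was 8 in P1 and 8 in P2 against P0 under every alternative fit (pseudocounts of 0.1 and 5 scaled units, 2 other filters, 2 other scalings, only the 4 libraries compared, no trend, a weight for each passage). With no minimum fold it was 9, *Sesn1* being added as lower. Between P1 and P2 it was 0 throughout. The 2 other filters kept all 11386 genes, so they could not change these numbers. The 2 other scalings used factors from 0.992 in P0 to 1.009 in P1, so they could change little. Each single gene kept its direction and its side of the threshold against P0, the highest adjusted p of a called gene being 0.00808 in P1 and 0.00860 in P2. The log2 fold change of *Sesn1* ran from -0.93 to -0.79 in P1, with an adjusted p of 0.0176 to 0.0453. Of the other p53 targets, the 32 called higher in P1 and 34 in P2 became 27 and 28 with a pseudocount of 5, and stayed at 31 or more and 33 or more under the other fits. Over all genes, the 10 called higher and 24 called lower in P2 against P1 became 0 and 0 with 4 libraries (11219 genes could be fitted) or with passage weights, 0 and 2 without a trend, 8 and 11 with a pseudocount of 5 and 11 and 30 with 0.1. The share of higher calls moved from 29.4% to 42.1% with the pseudocount of 5. No paired analysis was possible because the tables give a mean and an error per passage and do not show which value belongs to which replicate, and no library could be left out for the same reason. Depth is unknown, so its limit on these values cannot be given. The spread of P0 (median log2 difference between libraries 0.098) was smaller than that of P1 (0.177) and P2 (0.170).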
